A study of Mus musculus with 7 samples.

Results

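Class B G protein-coupled receptors bind peptide hormones, and the set described here held 9 receptor genes of this family and the gene of a parathyroid-type peptide, Pth2. The 10 genes were taken by symbol from a table of 55384 genes, and each matched 1 row. Messenger RNA on tagged ribosomes had been sequenced from Kiss1 cells in punches of the AVPV, the anteroventral periventricular nucleus, where kisspeptin neurons of the preoptic area lie. The mice were female, on the C57BL/6 background, with the genotype Kiss1Cre+/Rpl22HA+/+, in which Kiss1-driven Cre recombinase places an HA tag on the ribosomal protein Rpl22. A Cre line marks every cell in which the driver gene has been active up to sampling, so the tag is not limited to cells with Kiss1 at that time. There were 4 GDX libraries (ovariectomized, no estradiol) and 3 E2 libraries (estradiol-treated), and each came from a pool of 4 brains. The labels did not say whether the E2 females had also been ovariectomized, and gave no age, estradiol dose or duration.

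Receptors of this family have a large extracellular domain that captures the peptide, and most couple to Gs, adenylyl cyclase and cyclic AMP. Pth1r binds parathyroid hormone and its related protein, Pth2r is the receptor of the peptide TIP39 encoded by Pth2, and Calcr binds calcitonin. Calcrl and Calcr change their ligand when they pair with receptor activity-modifying proteins (RAMPs): Calcrl becomes a receptor for CGRP or adrenomedullin, and Calcr one for amylin. Crhr1 and Crhr2 bind corticotropin-releasing hormone and urocortins, Adcyap1r1 binds the peptide PACAP, and Glp1r and Ghrhr bind glucagon-like peptide 1 and growth hormone-releasing hormone.

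The libraries held 29207544 to 36213127 counts. Defining markers of the cells were detected in every library. In CPM (counts scaled to library size), means in GDX and E2 were 66.5 and 415 for Kiss1, 28.3 and 117 for Pgr, 297 and 551 for Th and 728 and 983 for Gad2, which rose, and 255 and 194 for Esr1 and 382 and 402 for Slc32a1, which did not pass. RNA of other cells was present too. GDX replicates 1 and 4 stood apart in their astrocyte score, the mean log2 CPM of 8 markers, with 7.53 and 7.7 against 6.21 to 6.71 in the other 5 libraries. Their endothelial scores were 4.9 and 5.35 against 3.17 to 4.2. The oligodendrocyte score was 8.47 in GDX replicate 1 and 7.38 to 7.58 elsewhere, and the microglial score was 3.21 to 3.61 in all 7. No library from the unbound tissue was analysed here, so enrichment in the tagged cells could not be measured.

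With estradiol, Pth2r was 6.02-fold higher and Calcr was 1.83-fold lower than in GDX. These were the members that passed the test across all genes, the edgeR quasi-likelihood test with Benjamini-Hochberg adjustment at 0.05. Of the 10 genes, 8 passed the filter on low counts, 1 rose, 1 fell and 6 did not pass the test. Over all 18282 genes tested, 3.88% were called, 2.55% as rises and 1.33% as falls. Scaling by library sizes alone gave 2.11% rises and 1.93% falls (4.03% in all), and no filter gave 2.15% and 2.64% (4.8% in all). The DESeq2 Wald test called 7.61% (3.66% rises, 3.94% falls), limma-voom called 5.92% (3.74% rises, 2.18% falls), and Pth2r and Calcr were called by both. Pth2 and Ghrhr did not reach the filter. The median log2 fold change of the 8 tested members was -0.34, with 6 of them below 0, beside a median of 0.00 over all genes tested. In ribosome-bound RNA of pooled tissue, fewer cells with a transcript and less transcript per cell cannot be told apart. The p-values measure the spread between pools.

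**Figure D1:**
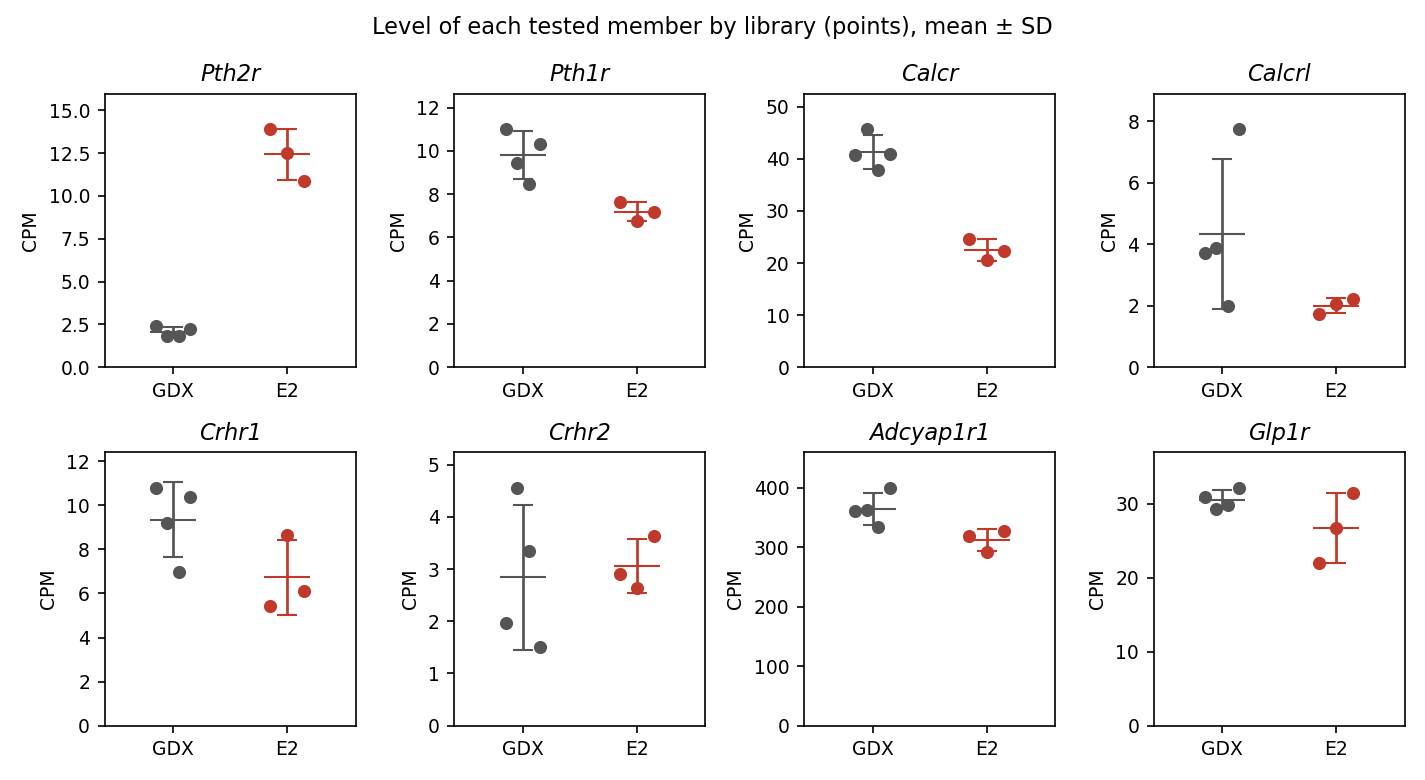
CPM (y axis) of the 8 tested members in each GDX and E2 library (points), with group mean and SD (bars; n = 4 and n = 3). Pth2r lies between 1.81 and 2.43 CPM in GDX and between 10.9 and 13.9 CPM in E2, and Calcr between 37.8 and 45.7 CPM in GDX and between 20.5 and 24.7 CPM in E2.

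Pth2r (ENSMUSG00000025946, chromosome 1, 65282056 to 65389244, plus strand, GRCm38) was low in every GDX library, at 2.43, 1.81, 1.81 and 2.21 CPM in replicates 1 to 4. It was at 13.9, 12.5 and 10.9 CPM in the 3 E2 libraries. The lowest E2 library was thus well above the highest GDX library. The counts behind these levels were 54 to 89 per library in GDX and 330 to 452 in E2. The mean was 2.06 ± 0.305 CPM in GDX (SD, n = 4) and 12.4 ± 1.52 CPM in E2 (SD, n = 3), with a log2 fold change of 2.59 ± 0.20 (standard error, edgeR adjusted p = 1.82e-05). The rise held its call without GDX replicates 1 and 4, at a log2 fold change of 2.77 (edgeR adjusted p = 3.89e-06), a fit added after the data were seen.

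RefSeq promoter windows on GRCm38.p6, from 250 bases before to 50 bases after a transcription start, were read for Pth2r and Calcr because these genes passed the test. The Pth2r window is chr1:65311007-65311306 on the plus strand, and the RefSeq start in it lies 29201 bp inside the GENCODE gene. The Calcr windows are chr6:3763574-3763873 and chr6:3764664-3764963 on the minus strand, for separate starts of the gene. Capitals mark letters that match a searched motif on either strand.
Pth2r: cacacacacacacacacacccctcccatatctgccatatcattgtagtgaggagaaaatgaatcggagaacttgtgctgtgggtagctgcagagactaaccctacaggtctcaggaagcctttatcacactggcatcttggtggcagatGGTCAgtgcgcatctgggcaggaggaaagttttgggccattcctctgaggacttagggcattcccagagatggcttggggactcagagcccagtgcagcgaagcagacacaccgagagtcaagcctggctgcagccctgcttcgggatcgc
Calcr, inner start: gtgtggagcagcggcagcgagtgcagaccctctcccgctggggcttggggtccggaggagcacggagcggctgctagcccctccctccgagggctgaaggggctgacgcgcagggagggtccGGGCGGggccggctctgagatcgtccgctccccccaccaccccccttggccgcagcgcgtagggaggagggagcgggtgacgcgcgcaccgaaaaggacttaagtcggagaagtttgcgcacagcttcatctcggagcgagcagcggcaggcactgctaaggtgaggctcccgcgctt
Calcr, outer start: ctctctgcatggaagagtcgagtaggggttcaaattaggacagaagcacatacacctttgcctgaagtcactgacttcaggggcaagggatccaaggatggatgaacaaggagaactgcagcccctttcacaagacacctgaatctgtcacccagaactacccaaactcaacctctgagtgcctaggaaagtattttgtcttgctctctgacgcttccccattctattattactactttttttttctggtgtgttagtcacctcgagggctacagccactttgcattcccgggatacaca

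The capitals in the Pth2r window are GGTCA, the core of an estrogen response element, at 65311156 to 65311160, beginning 101 bases before the RefSeq start. The same core, on either strand, was in 40.5% of all 32851 windows of that length, so its presence is common. Among the 12 member windows it was in 2, the other being that of Glp1r, 14 bases before the start, and Glp1r did not pass the test. The full palindromic estrogen response element, in which GGTCA is followed after 3 bases by its reverse complement, was in 0.07% of all windows and in none of the windows, which were listed for 9 of the members. The capitals in the inner Calcr window are the SP1 box GGGCGG, found in 35.7% of all windows. The cAMP response element TGACGTCA (1.79% of all windows) and the AP-1 site TGANTCA (7.81%) were searched as well and matched no member window. A match is a run of letters in a short window and shows no binding.

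Pth1r (ENSMUSG00000032492, chromosome 9, 110722085 to 110747145, minus strand), the receptor of parathyroid hormone, did not follow Pth2r. Its levels were 11, 9.46, 8.46 and 10.3 CPM in the GDX libraries and 7.64, 6.76 and 7.17 CPM in the E2 libraries. All E2 values were below all GDX values, but the log2 fold change of -0.45 ± 0.17 did not pass (edgeR adjusted p = 0.194). Groups that did not overlap were found for 4 of the 8 tested members (Pth2r, Calcr, Pth1r and Adcyap1r1) and for 16.5% of all genes tested. Pth1r shares 95 bp of exon with Myl3 on the opposite strand, so in these unstranded libraries its value is uncertain over that stretch.

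The balance of the PTH receptor genes differed between the groups. Per kilobase of exon, Pth2r made up 19.9%, 17.8%, 19.5% and 19.5% of the summed Pth1r and Pth2r level in GDX replicates 1 to 4. It made up 67.4%, 67.6% and 63.3% in E2 replicates 1 to 3. Pth1r was the more abundant transcript in each GDX library, and Pth2r in each E2 library. These shares are descriptive and rest on the Pth2r and Pth1r values above.

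Pth2, the gene of the Pth2r ligand TIP39 (ENSMUSG00000038300, chromosome 7, 45180995 to 45181838), had 0 counts in all 7 libraries. At these depths 0 counts allow up to 0.0818 to 0.101 CPM per library, taking 3 counts as the limit, which covers counting error only. Pth, the parathyroid hormone gene, also had 0 counts in all 7 libraries. Pthlh, which encodes the related protein that activates Pth1r, was low, at 1.72 ± 0.30 CPM (SD, n = 4) in GDX and 0.812 ± 0.479 CPM (SD, n = 3) in E2. At -1.07 ± 0.49 on the log2 scale it missed the threshold (edgeR adjusted p = 0.296).

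Calcr (ENSMUSG00000023964, chromosome 6, 3685680 to 3764714, minus strand) was at 40.7, 45.7, 37.8 and 40.9 CPM in the GDX libraries. It was at 24.7, 20.5 and 22.3 CPM in the E2 libraries, and the groups were far from overlapping. The mean was 41.3 ± 3.26 CPM in GDX (SD, n = 4) and 22.5 ± 2.10 CPM in E2 (SD, n = 3). This was a fall, with a log2 fold change of -0.87 ± 0.11 (edgeR adjusted p = 0.000527). The counts were 1361 to 1494 per GDX library and 623 to 802 per E2 library. Without GDX replicates 1 and 4 the log2 fold change was -0.89 (edgeR adjusted p = 0.00046). With a covariate for RNA of other cells (the mean of 32 non-neuronal markers) it was -0.91 (edgeR adjusted p = 0.00859). That score was 5.38 to 6.12 in GDX and 5.06 to 5.33 in E2, without overlap, so the covariate fit cannot tell RNA of other cells from treatment. Splice forms of the receptor were not separated, because the table holds 1 value per gene.

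Calcrl (ENSMUSG00000059588, chromosome 2, 84330626 to 84425411), the partner of RAMPs in CGRP and adrenomedullin receptors, varied most of the 8 tested members among the GDX libraries, relative to its mean, at 4.33 ± 2.43 CPM (SD, n = 4). Its levels were 3.71, 3.89, 1.98 and 7.74 CPM in GDX and 1.73, 2.04 and 2.21 CPM in E2. GDX replicate 4 was the highest library, and GDX replicate 3 lay within the E2 range. The log2 fold change of -1.12 ± 0.41 did not pass (edgeR adjusted p = 0.186), and it passed without GDX replicate 3 (-1.35, adjusted p = 0.0495, with 3.05% of all genes rising, 2.39% falling and 5.44% called) and with no filter on low counts (-1.12, adjusted p = 0.0192). Calcrl is a known gene of blood vessel endothelium. None of 8 endothelial markers passed the edgeR test (adjusted p 0.161 to 0.414). All 8 had a lower mean in E2, with summed levels of 156 to 422 CPM in GDX and 88 to 151 CPM in E2, and none was at 0. The score differed by -0.96 on the log2 scale, with a two-sided exact permutation p of 0.0571 (0.186 adjusted over the marker scores), where the smallest possible p is 0.0286. With the endothelial score as a covariate, a fit added after the data were seen, the Calcrl log2 fold change was -0.08 ± 0.42 (edgeR adjusted p = 0.969). The endothelial score was 3.96 to 5.35 in GDX and 3.17 to 3.89 in E2, without overlap. Endothelial RNA and treatment therefore cannot be told apart by this fit, and the part of endothelial RNA in the Calcrl values was not tested. In the same fit Calcr was at -0.93 (adjusted p = 0.00314) and Pth2r at 2.70 (adjusted p = 0.000204).

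**Figure D2:**
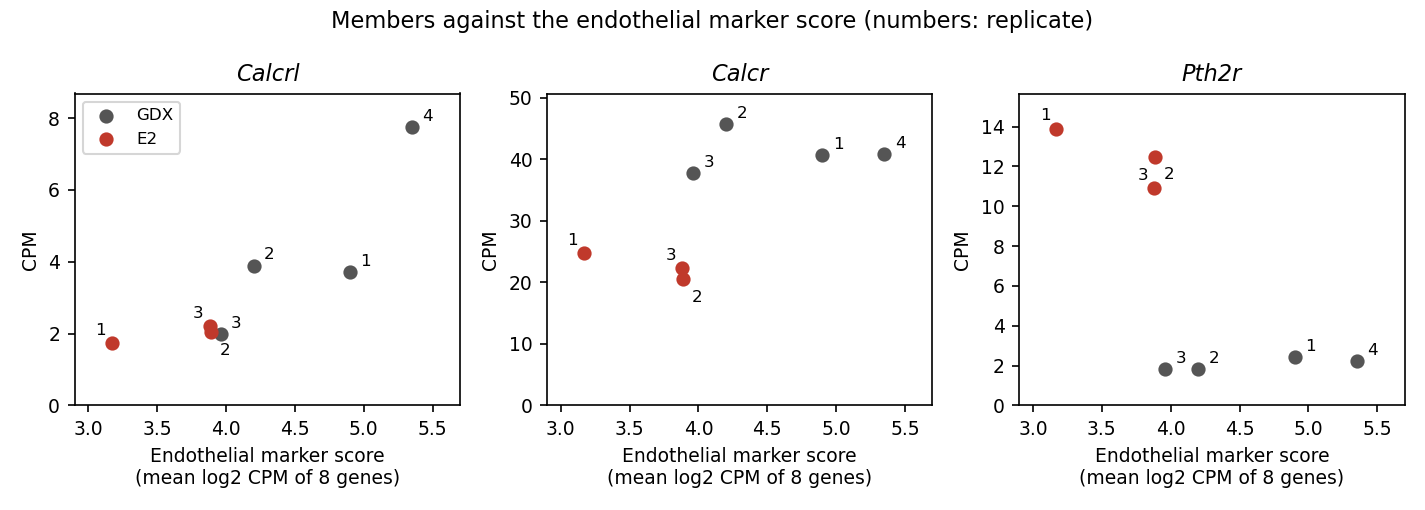
CPM of Calcrl, Calcr and Pth2r (y axes) against the endothelial marker score (x axes, mean log2 CPM of 8 genes), 1 point per library with its replicate number. Calcrl is highest, at 7.74 CPM, in the GDX library with the highest score of 5.35, and the E2 libraries are separate from GDX replicate 3 (score 3.96) for Calcr and Pth2r but not for Calcrl.

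All 3 RAMP genes had lower means in E2, and none passed the edgeR test. Ramp1, which makes the CGRP receptor with Calcrl, was at 19.8 ± 2.94 CPM (SD, n = 4) in GDX and 15.1 ± 2.51 CPM (SD, n = 3) in E2 (log2 fold change -0.39 ± 0.16, edgeR adjusted p = 0.225). Ramp2, the partner in an adrenomedullin receptor, was at 15.4 ± 4.43 CPM and 10.4 ± 1.82 CPM (-0.56 ± 0.22, edgeR adjusted p = 0.205), and it was highest in GDX replicate 4 at 21.8 CPM. Ramp2 shares 1103 bp of exon with Vps25 on the same strand, which leaves its value uncertain. Ramp3 was at 4.10 and 2.56 CPM (-0.68 ± 0.33, edgeR adjusted p = 0.333). Unadjusted p-values under 0.05 were found for 2 of the 3 and for 16.8% of all genes tested, and the DESeq2 Wald test and limma-voom called 0. Of the ligands, Calca, which encodes calcitonin and CGRP, was at 4.4 CPM in GDX and 3.59 CPM in E2 (-0.29 ± 0.26, edgeR adjusted p = 0.646), and Calcb and Iapp (amylin) missed the filter.

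Crhr1 (ENSMUSG00000018634, chromosome 11, 104132855 to 104175523) was at 10.8, 9.22, 6.98 and 10.4 CPM in GDX and 5.43, 8.64 and 6.11 CPM in E2. The groups overlapped, and the log2 fold change of -0.48 ± 0.22 did not pass (edgeR adjusted p = 0.308). The Crhr1 value was -0.08 with the non-neuronal score as a covariate and -0.07 with the endothelial score. Neither score overlapped between the groups, so RNA of other cells and treatment cannot be told apart by these fits. Crhr2 (ENSMUSG00000003476, chromosome 6, 55090049 to 55133016) was at 1.96, 4.56, 3.35 and 1.51 CPM in GDX and 2.9, 2.64 and 3.63 CPM in E2. GDX replicates 1 and 4 were its lowest libraries, whereas they were the highest for Crhr1. Its log2 fold change was 0.11 ± 0.38 (edgeR adjusted p = 0.929), and its sign changed in 7 of 19 alternative fits. Crh itself was at 35 ± 12.9 CPM (SD, n = 4) in GDX and 31.5 ± 7.87 CPM (SD, n = 3) in E2 and did not pass (-0.15 ± 0.31, edgeR adjusted p = 0.878). Its GDX values ran from 20.5 CPM in replicate 4 to 51.8 CPM in replicate 1. Crhbp, which encodes a secreted binding protein of the hormone, was at 2.69 and 2.31 CPM (adjusted p = 0.82), and Ucn3 at 1.67 and 1.10 CPM (edgeR adjusted p = 0.721).

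Adcyap1r1 (ENSMUSG00000029778, chromosome 6, 55451978 to 55501451), the PACAP receptor gene, was the most abundant member. It was at 360, 363, 334 and 400 CPM in the GDX libraries and 318, 292 and 327 CPM in the E2 libraries. Every E2 library was below every GDX library, by a narrow margin, as for 8.06% of all genes tested. The log2 fold change of -0.22 ± 0.08 did not pass (edgeR adjusted p = 0.16). Astrocytes are known to express this gene as well, and the 8 astrocyte markers summed to 1190 to 3160 CPM in GDX and 918 to 1090 CPM in E2, with a lower E2 mean for all 8 and none at 0. With the non-neuronal score as a covariate the Adcyap1r1 value was -0.14 ± 0.11 (edgeR adjusted p = 0.819). That score was 5.38 to 6.12 in GDX and 5.06 to 5.33 in E2, so the fit cannot tell it from treatment. The part of astrocyte RNA in the Adcyap1r1 values was not tested. The gene of its ligand PACAP, Adcyap1, had the higher mean in E2 without passing, 21.0 ± 2.01 CPM (SD, n = 3) against 14.8 ± 3.74 CPM in GDX (SD, n = 4), with a log2 fold change of 0.50 ± 0.19 (edgeR adjusted p = 0.199).

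Glp1r (ENSMUSG00000024027, chromosome 17, 30901817 to 30940791) was at 31.0, 29.3, 29.9 and 32.2 CPM in GDX, the tightest of the tested members relative to its mean. In E2 it was at 22, 26.8 and 31.5 CPM, so that E2 replicate 3 reached the GDX range and E2 replicate 1 was far below it. The log2 fold change of -0.19 ± 0.12 did not pass (edgeR adjusted p = 0.48). Gcg, from which glucagon-like peptide 1 is made, missed the filter. Its largest values were 1.22 CPM in E2 replicate 2 and 0.401 CPM in E2 replicate 1, and E2 replicate 3 had 0 counts.

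Ghrhr (ENSMUSG00000004654, chromosome 6, 55376295 to 55388530) was barely detected, with 7 counts over all 7 libraries. These were 2 in GDX replicate 2, 4 in E2 replicate 1 and 1 in E2 replicate 2. All libraries but E2 replicate 1 were under the 3 counts that a count of 0 allows, and the difference of 0.0353 CPM gave a two-sided exact permutation p of 0.543. Ghrh, the ligand gene, was low but rose. It was at 0.654, 0.738, 1.46 and 0.81 CPM in GDX and 2.96, 2.31 and 3.80 CPM in E2, with no overlap. Its log2 fold change was 1.72 ± 0.38 (edgeR adjusted p = 0.0249). It did not keep its call without GDX replicate 1 (adjusted p = 0.0847), GDX replicate 2 (0.0675), E2 replicate 1 (0.102) or E2 replicate 3 (0.125), with the replicate block (0.0541), without GDX replicates 1 and 4 (0.0949) and with the non-neuronal (0.439) or the endothelial (0.3) covariate. Its log2 fold change in these 8 fits was 1.59, 1.63, 1.73, 1.52, 1.72, 1.45, 1.3 and 1.37, in the same order. Ghrh is a marker of arcuate neurons. The score of the 6 genes listed here as arcuate markers, of which it is a part, was 0.16 to 0.49 in GDX and 1.54 to 1.78 in E2. Their summed level was 31.8 to 46.7 CPM in GDX and 41.1 to 47.9 CPM in E2, with Prlh at 0 in GDX replicates 2 to 4. Of these markers Agrp rose, with means of 0.277 CPM in GDX and 3.03 CPM in E2 (edgeR adjusted p = 0.000631). Tac2, the most abundant, was at 32.6 and 32.4 CPM and did not pass. Pomc, at 2.75 and 3.8 CPM, and Npy, at 2.02 and 2.32 CPM, did not pass either. Prlh, at 0.0205 and 0.325 CPM, missed the filter. The part of arcuate RNA in the Ghrh result was not tested.

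**Figure D3:**
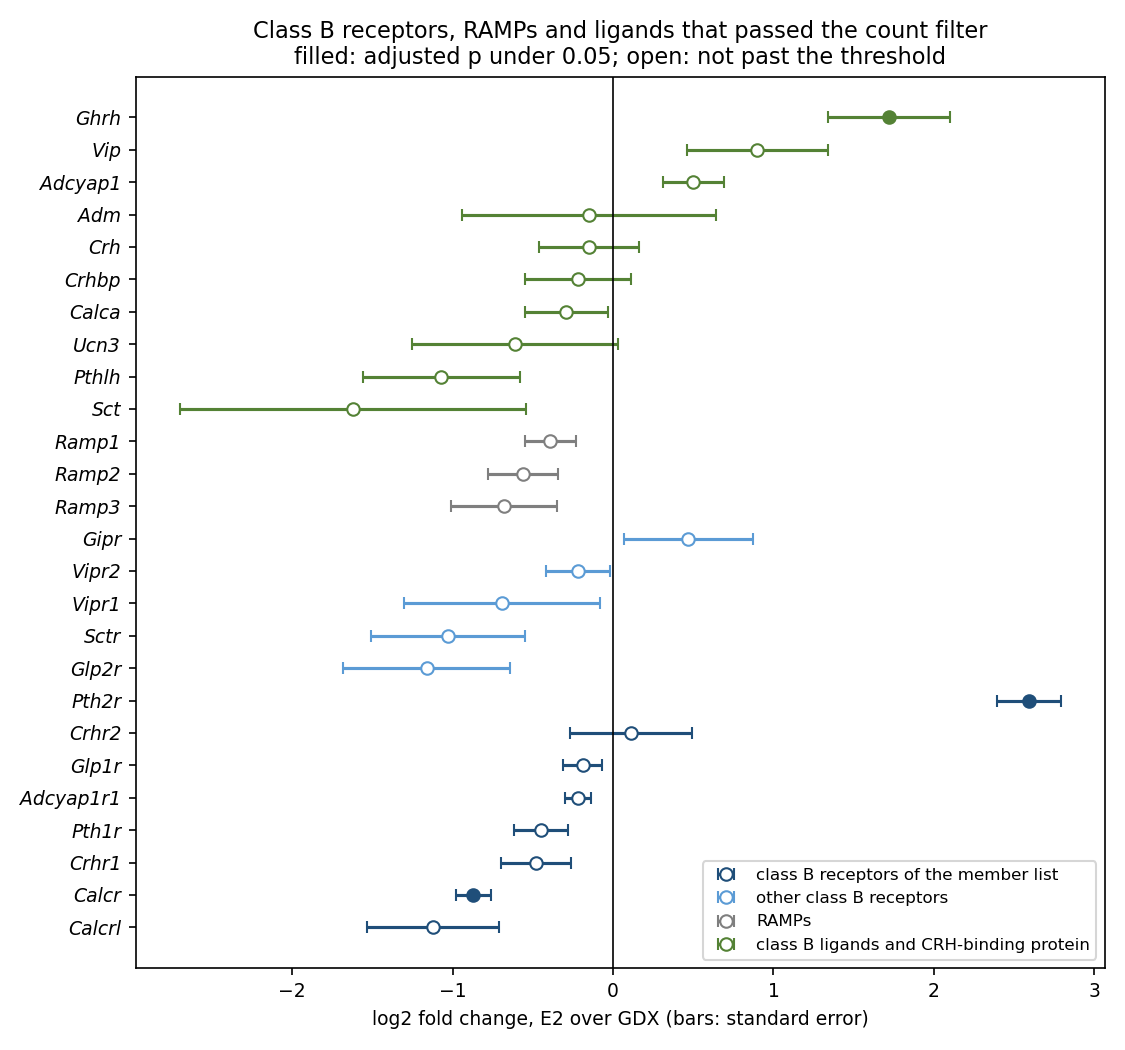
Log2 fold change, E2 over GDX (x axis), with standard error, for the class B receptors, RAMPs and ligands that passed the count filter (y axis). Filled points passed the adjusted p threshold: Pth2r at 2.59, Calcr at -0.87 and Ghrh at 1.72.

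Levels of different members can be compared only per length. On the scale of CPM per kilobase of exon, Adcyap1r1 led in both groups, with 55.2 ± 4.13 (SD, n = 4) in GDX and 47.3 ± 2.71 (SD, n = 3) in E2. At its mean over all libraries it was at the 94.9 percentile of the genes tested. In GDX it was followed by Calcr (10.5), Glp1r (5.27), Crhr1 (3.80) and Pth1r (3.36), and then by Calcrl (0.887), Pth2r (0.80) and Crhr2 (0.556). Adjacent members in this order were separate in all GDX libraries except Crhr1 and Pth1r, Calcrl and Pth2r, and Pth2r and Crhr2, whose ranges overlapped. In E2 the order was Adcyap1r1, Calcr (5.76), Pth2r (4.81), Glp1r (4.61), Crhr1 (2.73), Pth1r (2.46), Crhr2 (0.597) and Calcrl (0.408). Pth2r moved from rank 7 to rank 3, and its E2 range of 4.22 to 5.40 overlapped those of Calcr (5.25 to 6.32) and Glp1r (3.78 to 5.42). The ranges of Crhr1 and Pth1r overlapped in E2 too, and the other neighbours among the tested members were separate. Calcr held 86.8% to 96.0% of the Calcr and Calcrl sum over the 7 libraries, and Crhr1 held 77.8% to 93.5% of the Crhr1 and Crhr2 sum.

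**Figure D4:**
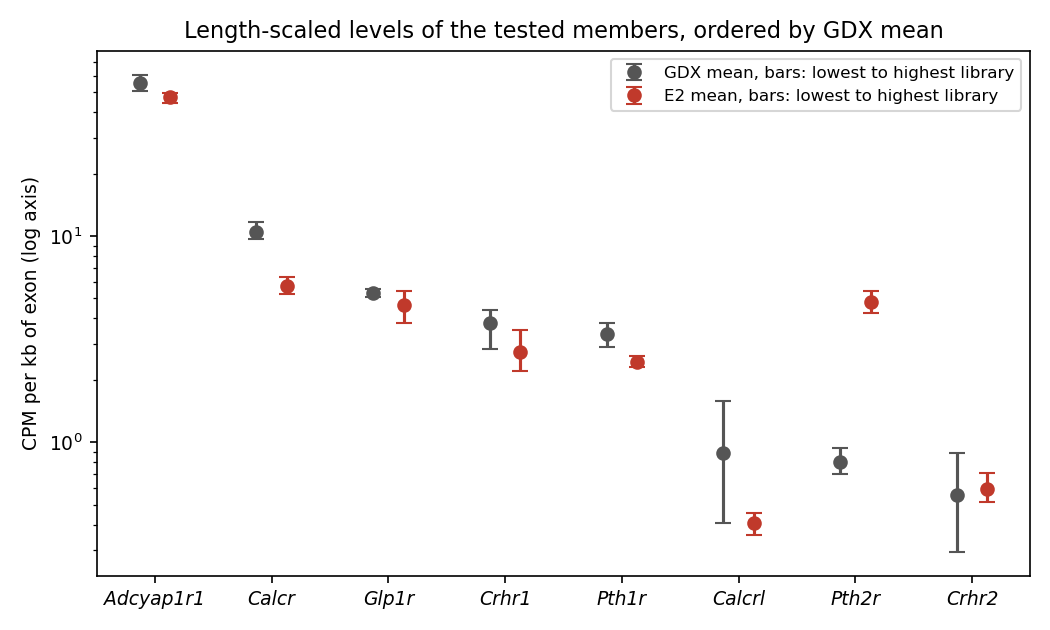
Length-scaled level (y axis, log scale, CPM per kilobase of exon) of the 8 tested members in GDX and E2, as group mean with the lowest and highest library. Adcyap1r1 is highest in both groups, and Pth2r goes from 0.80 in GDX to 4.81 in E2.

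Genes whose pattern was most like that of the called members were found by the root mean square difference of centred log2 CPM over the 7 libraries, among 11744 protein-coding genes that averaged 5 CPM or more. For Pth2r they were Rasd1, a Ras-like GTPase gene (0.141 log2 units), A730046J19Rik (0.163) and Maob, the monoamine oxidase B gene (0.217). Rasd1 was 6.01-fold higher, A730046J19Rik 5.02-fold higher and Maob 4.93-fold higher in E2. For Calcr they were Peg10, an imprinted gene derived from a retrotransposon (0.080), Fam13a (0.101) and Bcl6, a transcriptional repressor gene (0.105). Peg10 was 2.01-fold, Fam13a 1.77-fold and Bcl6 1.72-fold lower in E2 than in GDX. The measure is a description of 7 libraries in 2 treatment groups. Because the genes were picked by this likeness, fold changes near those of Pth2r and Calcr were fixed by the choice.

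The 6 class B receptors outside the set had group means of up to 8.42 CPM. Of 6, 5 were tested and none passed in edgeR, DESeq2 or limma-voom, and 1 was under 0.05 before adjustment, a share near the 16.8% of all genes tested. Vipr2, a receptor for VIP and PACAP, was the highest at 8.42 CPM in GDX and 7.20 CPM in E2 (log2 fold change -0.22 ± 0.20, edgeR adjusted p = 0.651). Gipr was at 1.43 and 1.98 CPM (0.47 ± 0.40, edgeR adjusted p = 0.634). The median of the 5 was -0.69, with 4 below 0. Gcgr, the glucagon receptor gene, missed the filter. The ligand list of 19 genes had 10 tested, of which 1 rose (Ghrh) and 9 did not pass.

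Further along the pathway, 2 of 31 genes of Gs, cAMP and CREB signalling rose, none fell and 29 did not pass, with a median log2 fold change of -0.01. Over all genes tested 2.55% rose, so that 2 in a list of this length is no result about the pathway. Prkacb, a catalytic subunit gene of protein kinase A, was at 657, 682, 648 and 732 CPM in GDX and 950, 931 and 926 CPM in E2. Its log2 fold change was 0.46 ± 0.06 (edgeR adjusted p = 0.00132), and its call held in all 19 alternative fits. Pde10a, a phosphodiesterase gene, rose as well: its mean was 43.2 ± 4.88 CPM in GDX (SD, n = 4) and 64.7 ± 9.16 CPM in E2 (SD, n = 3), with a log2 fold change of 0.58 ± 0.12 (edgeR adjusted p = 0.0159). That call was lost without E2 replicate 1 (adjusted p = 0.111) or E2 replicate 3 (0.0664) and with the non-neuronal (0.0946) or endothelial (0.0862) covariate. The log2 fold changes in those fits were 0.47, 0.60, 0.69 and 0.64, in the same order. Gnas, which encodes the Gs alpha subunit and shares exons with antisense transcripts, did not pass at -0.07 ± 0.08 (edgeR adjusted p = 0.749), nor did the regulatory subunit gene Prkar1b at 0.17 ± 0.07 (0.255). None of 7 arrestin and GPCR kinase genes passed in edgeR, DESeq2 or limma-voom, and 0 had an unadjusted p under 0.05. Grk2 was at 0.02 ± 0.08 and Arrb1 at 0.00 ± 0.08.

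Across 19 alternative fits, the log2 fold change of Pth2r ranged from 2.50 to 2.80 and that of Calcr from -0.95 to -0.81, and both kept their calls in each. The values of Pth1r (-0.51 to -0.26), Adcyap1r1 (-0.28 to -0.12), Glp1r (-0.33 to -0.02) and Crhr1 (-0.70 to -0.07) stayed below 0 and passed in none.

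**Figure D5:**
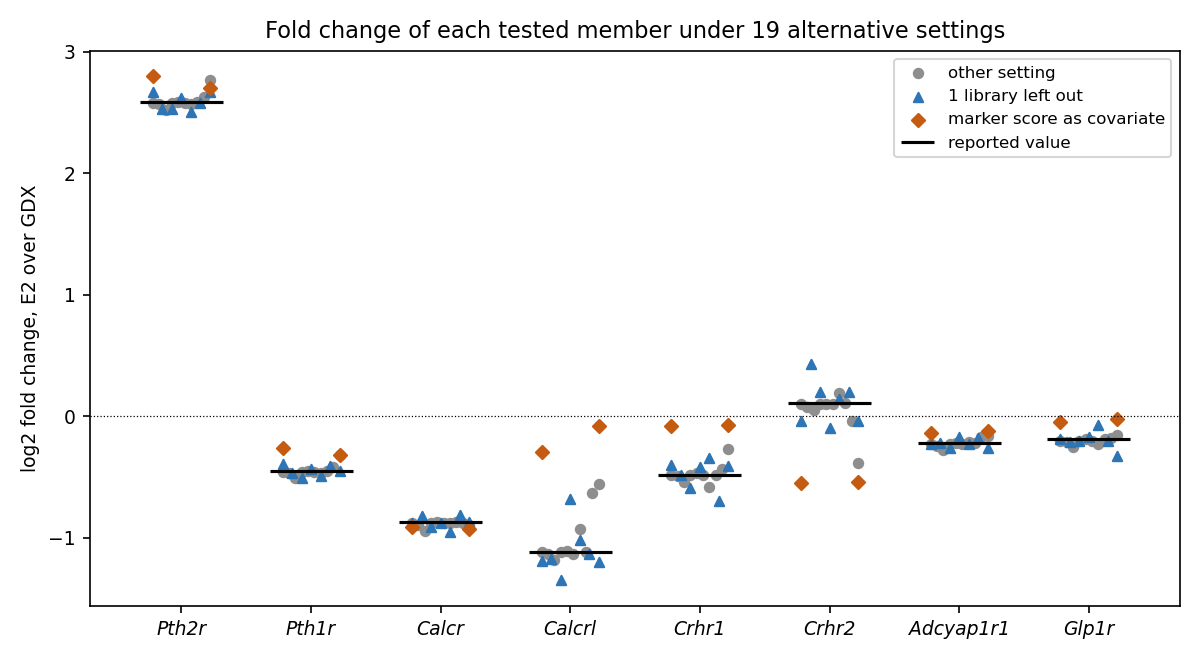
Log2 fold change, E2 over GDX (y axis), of the 8 tested members (x axis) as reported (black lines) and under 19 alternative settings (points; triangles leave out 1 library and diamonds add a marker score as a covariate). Pth2r stays between 2.50 and 2.80 and Calcr between -0.95 and -0.81, while Calcrl ranges from -1.35 to -0.08 and Crhr2 from -0.55 to 0.43.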

How the data were processed

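Expected counts per gene, 1 value per library, were deposited by the authors, and 33.1% of the non-zero values were not whole. Trimmomatic 0.38, STAR 2.6.0a, RSEM 1.3.0 and build mm10 were used, per the submitters' processing notes, which give no roles and, like the other sources used here, name no annotation. The labels' protocols name unstranded poly(A) libraries and no batch. Identifiers were matched to GENCODE vM21 (GRCm38) for 55203 of 55384 genes.

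Counts were rounded and fitted in R 4.3.3 with edgeR 4.0.16 (TMM, filterByExpr at a count of 10 and a total of 15, robust quasi-likelihood test), E2 against GDX over all 7 libraries, which left 18282 genes. Standard errors come from the unshrunken coefficient and the F statistic. CPM use TMM-scaled library sizes, and log2 CPM for scores use a prior count of 2. CPM per kilobase divide by the union of annotated exons, not the effective length. Alternatives included DESeq2 1.42.0, limma 3.58.1 (voom), other scaling and filters, the replicate block, covariates and leaving out libraries, and the fit was tested on simulated data. Non-neuronal markers were those of astrocytes, oligodendrocytes, microglia and endothelium. Named genes were the 10 members, called list genes, up to 2 abundant uncalled genes per list and the 3 genes most like each called member, and others were added after their values were seen. The score over the whole kisspeptin neuron marker list is not reported here. Members and lists were chosen with earlier results of these data known.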

Additional observations from a re-analysis of the deposited data

Results flagged for a closer look

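A GDX library far from the other 3 was judged by its gap to the nearest value over the range of the 4, with a critical value of 0.829. It was found for 3 of the 41 genes examined, where chance gives about 1 in 20. Other genes named in the text were not examined. Among these, Kiss1 was at 114 CPM in GDX replicate 4 against 44.5 to 56 CPM in the other GDX libraries, and Col1a2 at 117 CPM against 12.9 to 18 CPM. Ghrhr was at 0.0671 CPM in GDX replicate 2, which is 2 counts, and at 0 in the other GDX libraries. With those at 0, any count above 0 meets the rule, so the Ghrhr flag carries no information on spread. Grk2, a GPCR kinase gene, was at 183 CPM in GDX replicate 4 against 210 to 213 CPM in the others. Mbp, an oligodendrocyte marker, was at 2620 CPM in GDX replicate 1 against 1170 to 1310 CPM in the others, and no call on a member was lost without that library.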

How the results depend on the processing

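The counts of members that rose and fell, 1 and 1, held in the alternatives except that 2 members fell with no filter and without GDX replicate 3, where Calcrl passed (range 1 to 2 with 1 library left out). Calcrl was at -1.12 with no filter and from -1.35 to -0.68 with 1 library left out. Crhr2, at 0.11 as reported, was at -0.04 with the replicate block, -0.55 and -0.54 with the non-neuronal and endothelial covariates, -0.38 without GDX replicates 1 and 4 together, and from -0.10 to 0.43 with 1 library left out. The 467 rises and 243 falls over all genes became 722 and 887 with no filter, 218 and 93 with the non-neuronal covariate, and 269 and 117 with the endothelial covariate. Falls were 721 with DESeq2 and 398 with limma-voom, and 1 library left out gave 268 to 591 rises and 96 to 428 falls. The 1 changed ligand gene became 4 with no filter and 0 with the replicate block, either covariate or without GDX replicates 1 and 4 together (0 to 1 with 1 library left out). The 2 changed cAMP genes became 1 with either covariate (1 to 2 with 1 library left out) and 3 with library sizes alone, no filter or DESeq2, and 1 RAMP gene was called with no filter. The cause of these shifts was not tested, other than that fewer samples entered the fits that left libraries out. GDX replicates 1 to 3 and E2 replicates 1 to 3 share numbers, but their deviations from the group means correlated at -0.020, -0.038 and -0.055 across genes, so the numbers were not taken as pairs. The replicate block, in which GDX replicate 4 has no partner, changed no member call. Depth limits the lowest members most: Pth2r rested on 54 to 89 counts per GDX library and Ghrhr on 7 in all.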

Other observations

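Calcr and the gene most like it in pattern, Peg10, both lie on chromosome 6, with 983 kb between them. The interval from 3685680 to 4760517 (GRCm38) was examined after their values were seen, and it held 7 tested genes. The interval was set by Calcr and Peg10, which fell, so those falls were fixed by the choice. The 5 other genes did not pass, with log2 fold changes from -1.60 to -0.06. Over all genes tested 1.33% fell, a share that is no yardstick for an interval chosen this way. Peg10 was at 610 ± 38.4 CPM in GDX (SD, n = 4) and 303 ± 31.2 CPM in E2 (SD, n = 3), with a log2 fold change of -1.01 ± 0.09 (edgeR adjusted p = 3.02e-05). Sgce, the imprinted gene next to Peg10 on the opposite strand, was at 36 CPM in GDX and 34.6 CPM in E2 (-0.06 ± 0.11, edgeR adjusted p = 0.856), and Casd1, the next tested gene, was at 79.6 and 75.5 CPM (-0.08 ± 0.09, adjusted p = 0.751). Between Calcr and Casd1, Gng11 was at 7.85 and 4.23 CPM (-0.89 ± 0.35, edgeR adjusted p = 0.227), Bet1 at 15.2 and 11.2 CPM (-0.44 ± 0.13, adjusted p = 0.11) and Col1a2, a collagen gene, at 41.5 and 13.7 CPM (-1.60 ± 0.97, adjusted p = 0.504) with 117 CPM in GDX replicate 4. The log2 fold change of Gng11 was as far below 0 as that of Calcr, with a larger standard error, but its groups overlapped. Gng11 was at 10.3 and 10.7 CPM in GDX replicates 1 and 4, and at 4.86 and 5.58 CPM in GDX replicates 2 and 3. Its E2 values were 2.51 to 5.36 CPM. Differences between the genes' changes were not tested.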
